A study of Mus musculus with 6 samples.

Results

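The genes described here encode the constitutive proteasome. They are the 32 of 24083 gene symbols that are Psma, Psmc or Psmd followed by a number, or Psmb1 to Psmb4. The rule used names only, with no measured value. Of these, 12 encode the core particle and 20 the regulatory particle. The samples were mouse embryonic stem cells grown on gelatin in medium with serum and LIF, a cytokine that keeps them self-renewing. Polyadenylated RNA was sequenced in 3 libraries of the WT group, whose Nanog is wild type, and in 3 of the R153A group, whose Nanog is the R153A form. Nanog, a homeodomain protein, regulates transcription in pluripotent cells. No treatment was given to either group. How R153A was introduced, whether it was 1 clone, and whether libraries came from separate cultures were not given in the sources used here. Each p-value thus measures the spread between these libraries, which may be technical.

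The proteasome degrades proteins that carry chains of ubiquitin. Its core particle is a barrel of stacked rings: alpha subunits form the outer rings and gate the entrance, and beta subunits form the inner rings that hold the cutting sites. The regulatory particle caps the barrel. Its base has a ring of AAA ATPases that unfold substrates, and its lid holds the enzyme that removes ubiquitin before entry. Dedicated chaperones bind the ATPases during assembly and leave before the particle is complete. Embryonic stem cells are known for high proteasome activity. Subunit genes are known to be transcribed together under NFE2L1, a factor that binds antioxidant response elements when proteasome activity falls short.

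Levels are in FPKM, sequenced fragments scaled for gene length and library depth. FPKM summed to between 360152 and 382086 per library. No counts were given, so the depth behind each value is unknown. Of the 12 markers of embryonic stem cells, 8 fell, 2 rose and 2 did not pass the test described below. That was 83.3% called, against 59.8% of all genes tested. Lin28a rose from 43.4 ± 2.90 to 99.0 ± 1.25 FPKM and Cdh1 from 77.1 ± 4.32 to 119.7 ± 1.72 FPKM (SD, n = 3). Among those that fell, Nanog itself had 253 ± 10.02 FPKM (WT) against 123 ± 5.16 FPKM (R153A) (SD, n = 3). An amino acid change cannot be checked from these values. The summed level of the 10 feeder fibroblast markers was 5.77 to 6.63 FPKM in WT and 9.20 to 9.65 FPKM in R153A. Of those 10, 3 passed the filter and 2 rose, Col1a1 to 2.82 FPKM and Col1a2 to 1.70 FPKM, while Lum was listed at 0 in all WT libraries. Thy1, the other marker tested, had 3.79 ± 0.467 FPKM (WT) against 3.19 ± 0.274 FPKM (R153A) (SD, n = 3). Thy1 did not pass the test (limma adjusted p = 0.0899), though 3 of 15 alternative settings called it lower. Col1a2 was under 1 FPKM in every WT library, so it passed the filter only through its R153A libraries. Col1a1 was under 1 FPKM in WT replicate 1. The part of these marker shifts in the members' values was not tested. Fewer cells of a type and less RNA per cell cannot be told apart in such samples.

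In the deposited FPKM, mean mRNA levels of the structural subunits differed by at most 17.8% between WT and R153A cells, and Psma8, Psmd5 and Psmd9 changed by more. All 32 members passed the filter of at least 1 FPKM in at least 3 libraries. A gene was called where the limma adjusted p, over all 11817 genes tested, was under 0.05. By that rule 59.8% of all genes tested were called, 37.5% higher and 22.3% lower in R153A. Of the 32 members 9 were called, 5 higher and 4 lower. Without Psma8 and the 3 chaperones, 28 structural subunits remained, of which 5 were called, 4 higher and 1 lower. Among genes with a mean of 50 FPKM or more, a range that holds all 28 structural subunits, 55.0% were called. The groups did not overlap in 13 members, against 65.0% of all genes tested. A call with at least a 2-fold change was made for 8.29% of all genes tested and for 0 of the 32 members.

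**Figure D1:**
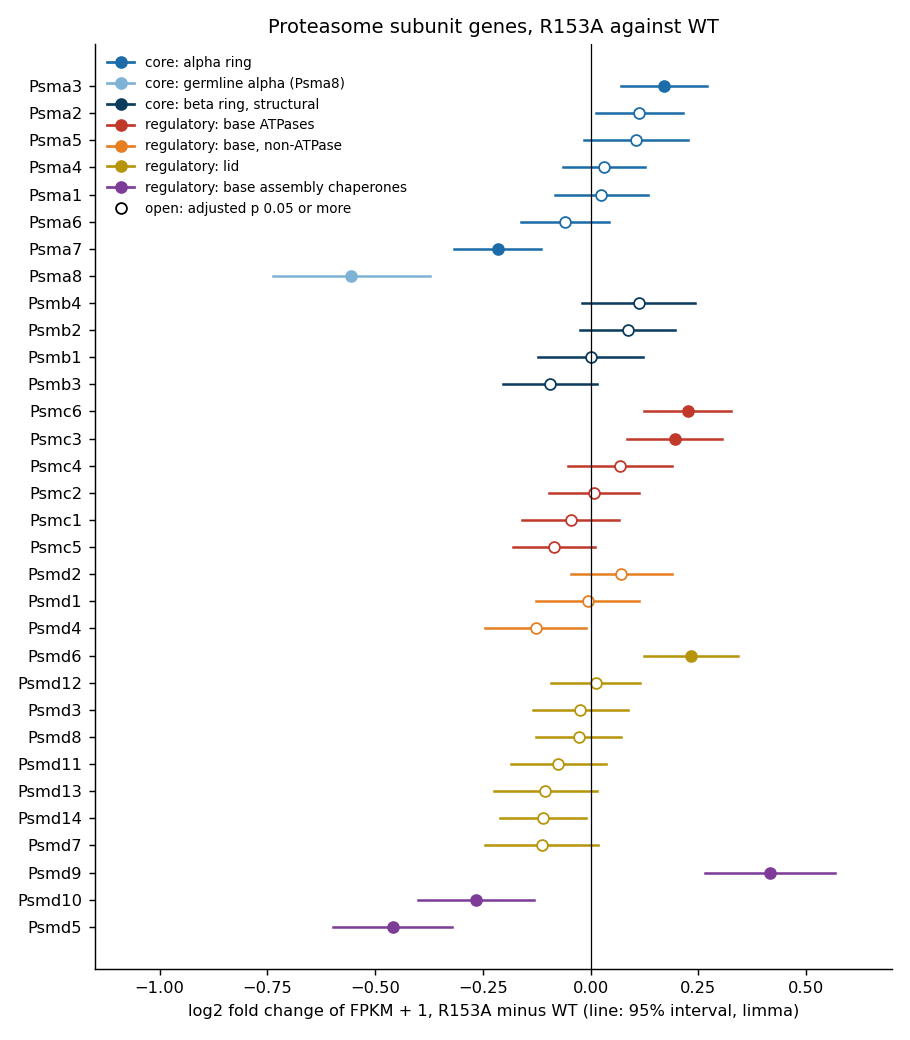
Log2 fold change of FPKM + 1 (R153A minus WT) of each of the 32 members, grouped by their place in the proteasome, with the 95% interval from limma as a line. Filled points passed the adjusted threshold and open points did not; the 28 structural subunits lie between -0.22 and 0.23, and Psma8, Psmd5 and Psmd9 lie farthest from 0.

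Log2 fold changes here are R153A minus WT of log2(FPKM + 1). Their median size was 0.09 in the structural subunits and 0.10 in all members, against 0.24 in all genes tested and 0.16 in genes of 50 FPKM or more. The 23 members not called had 95% intervals that lay within -0.25 and 0.24 on the log2 scale. Each interval covers 1 gene at the scaling of the deposited FPKM and leaves out the choice of scaling. The intervals do not show that the levels were equal. The members' median residual SD between libraries was 0.055 on the log2 scale. It was 0.083 in all genes tested and 0.061 in genes of 50 FPKM or more, so the members were near genes of like level.

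These counts and sizes depend on the scaling of the libraries. The log2 fold change of Psma7, -0.22 in the main fit, was -0.30 under median-ratio scaling. Under median-ratio scaling the median of all genes tested moved by -0.07 and 13 of the 28 structural subunits were called, 3 higher and 10 lower. That setting called 62.8% of all genes. The 9 members that it added as lower were Psma6, Psmb3, Psmc5, Psmd4, Psmd7, Psmd8, Psmd11, Psmd13 and Psmd14, of which 7 are regulatory. The members' split of 5 higher and 4 lower became 4 and 13 there, 5 and 9 after rescaling to TPM, and 6 and 7 under quantile normalization. All genes tested gave 62.7% of calls as higher in R153A, 50.7% under median-ratio scaling and 47.4% under quantile normalization. In contrast Psma7, Psma8, Psmc3, Psmc6, Psmd5, Psmd6, Psmd9 and Psmd10 were called in the same direction in all 16 alternatives. Psma8 was under 5 FPKM in every R153A library, so it passed the filter of 5 FPKM only through its WT libraries.

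**Figure D2:**
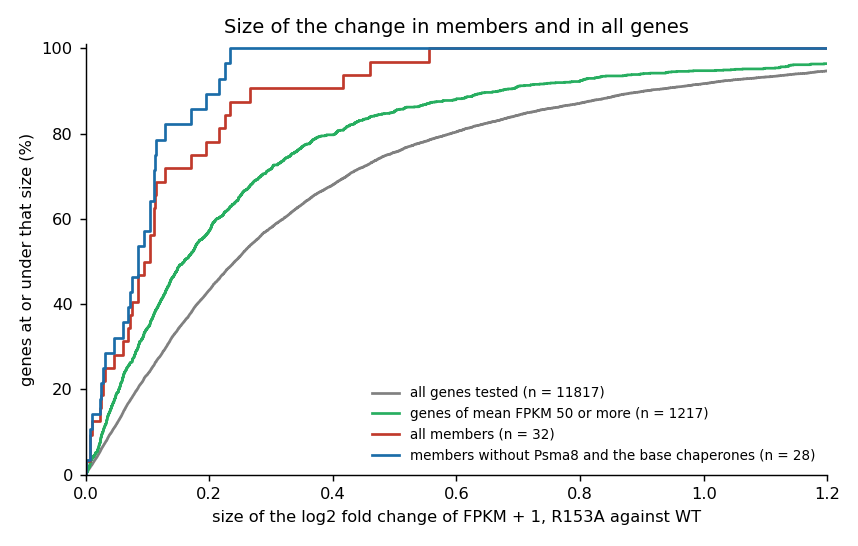
Share of genes (%) whose log2 fold change is at or under a given size, for all genes tested, genes of mean FPKM 50 or more, all members, and the 28 structural subunits. The curve of the structural subunits reaches 100% at 0.23, where the curve of all genes tested is near its middle; the genes' medians are 0.09 and 0.24.

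In the core particle, 1 alpha subunit rose, 1 fell, and the germline form Psma8 fell. That was 25% of core members called, against 59.8% of all genes tested. Of the 7 alpha subunits of the somatic ring, Psma3 was measured at 116, 123 and 116 FPKM (WT libraries) against 130.3, 135 and 134 FPKM (R153A libraries). The R153A libraries all lay above the WT libraries. Psma3 rose by 12.6%, with log2 fold change 0.17 and SE 0.0454 (limma adjusted p = 0.00738). The call ended under median-ratio scaling (limma adjusted p = 0.0916, range 0.00315 to 0.0916 over the alternatives). Psma7, which shares its place in the ring with Psma8, was measured at 198, 203 and 210.3 FPKM (WT libraries) against 175, 171 and 179 FPKM (R153A libraries). Every R153A library lay below every WT library. Psma7 fell by 14.0%, with log2 fold change -0.22 and SE 0.0456 (limma adjusted p = 0.00183). Psma1, Psma2, Psma4, Psma5 and Psma6 did not pass the test, with log2 fold changes from -0.06 to 0.11. Of these, Psma2 had groups that did not overlap, 138 to 144.5 FPKM in WT and 148.5 to 158 FPKM in R153A (limma adjusted p = 0.0513). Psma2 was called higher in 3 of 16 alternatives, with the lowest p under quantile normalization (limma adjusted p = 0.00725).

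Psma8 encodes the alpha subunit that takes the place of Psma7 in germ cells of the testis. It was the lowest member of the core particle by far, at 8.12, 6.59 and 7.34 FPKM (WT libraries) against 4.69, 4.98 and 4.34 FPKM (R153A libraries). All R153A values were under all WT values. Its log2 fold change of -0.56 was the largest in size among the 32 members (SE 0.0823, limma adjusted p = 1.49e-04). As a share of the summed FPKM of Psma7 and Psma8, Psma8 made up 3.49% ± 0.405 in WT and 2.60% ± 0.229 in R153A (SD, n = 3). The 2 genes are similar in sequence and many proteasome genes have processed pseudogenes. How reads with several matches were counted was not given in the sources used here, so small values such as those of Psma8 are uncertain.

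Of the 4 structural beta subunits, 0 passed the test by limma, against 59.8% of all genes tested. None of the 4 had an unadjusted p under 0.05. Psmb3, the member with the highest mean over both groups, was measured at 213, 224 and 235 FPKM (WT libraries) against 209.8, 207 and 212 FPKM (R153A libraries). Its groups did not overlap, with R153A below by a narrow margin (log2 fold change -0.09, SE 0.0492, limma adjusted p = 0.122). Psmb4 stood at 205 ± 13.2 FPKM in WT and 221 ± 11.7 FPKM in R153A, Psmb1 at 149.6 ± 8.74 and 149.5 ± 6.17 FPKM, and Psmb2 at 116 ± 4.92 and 123 ± 4.27 FPKM (SD, n = 3). Log2 fold changes of the 4 genes ran from -0.09 to 0.11, and Psmb3 was called lower after median-ratio or TPM scaling.

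In the regulatory particle, 2 of the 6 ATPases rose and none fell (33.3% called, against 59.8% of all genes tested). Under median-ratio and TPM scaling, however, Psmc5 was called lower. Psmc6 was measured at 63.1, 66.4 and 66.1 FPKM (WT libraries) against 77.7, 74.3 and 77.2 FPKM (R153A libraries). Psmc3 was measured at 68.7, 75.0 and 68.4 FPKM (WT libraries) against 81.1, 79.5 and 82.5 FPKM (R153A libraries). For both ATPases the groups were apart, with R153A higher. Psmc6 rose by 17.1% (log2 fold change 0.22, SE 0.0459, limma adjusted p = 0.00143) and Psmc3 by 14.6% (0.19, SE 0.050, limma adjusted p = 0.00604). Psmc1, the ATPase gene of the highest level, was measured at 146, 149 and 137 FPKM (WT libraries) against 135, 146 and 138 FPKM (R153A libraries), and these ranges overlapped. Psmc2, Psmc4 and Psmc5 did not pass either, with log2 fold changes from -0.09 to 0.07. All ATPases assemble into 1 ring, yet the 6 changes ran from -0.09 for Psmc5 to 0.22 for Psmc6.

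**Figure D3:**
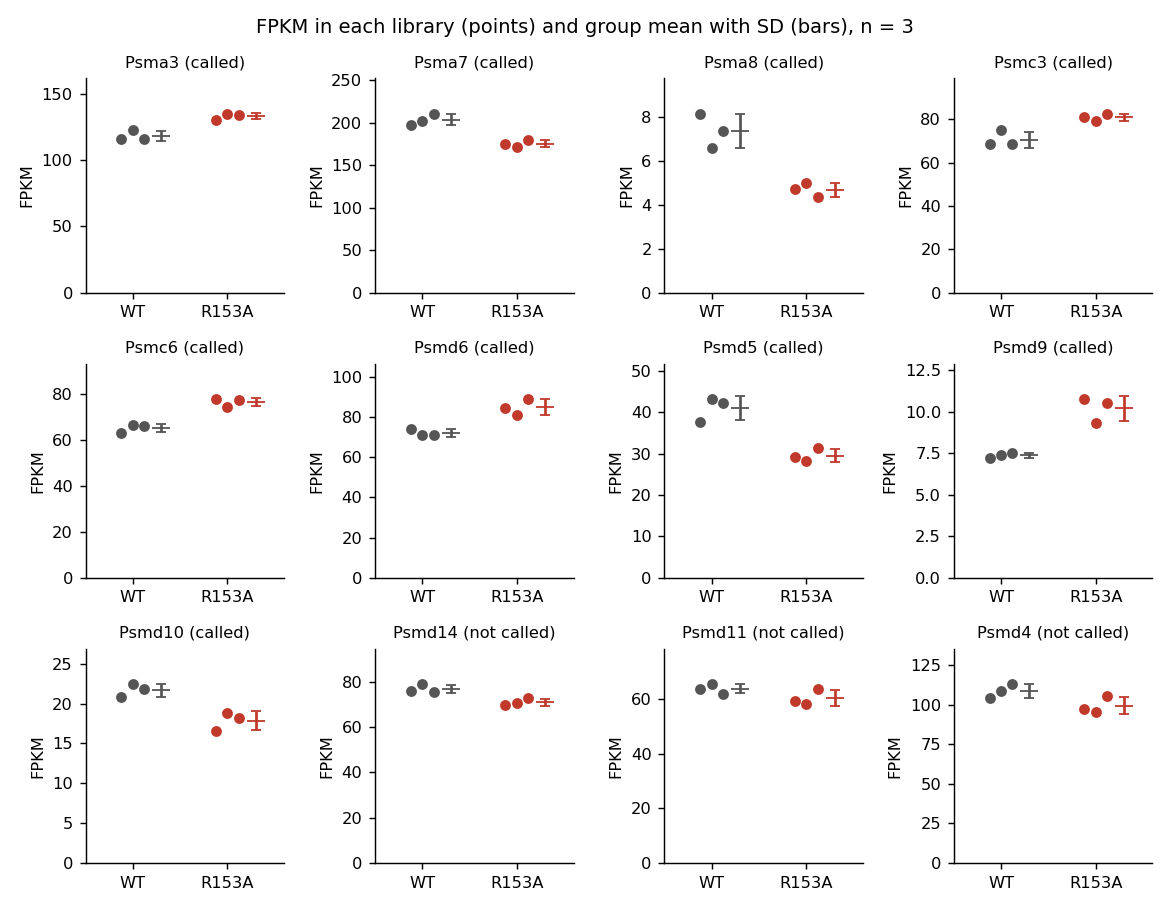
FPKM in each library (points) with the group mean and SD (bars, n = 3) for the 9 called members and for Psmd14, Psmd11 and Psmd4, each panel on its own axis from 0. The groups are apart in all 9 called members; in Psmd14 they are apart by under 3 FPKM, and in Psmd11 and Psmd4 they overlap.

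Of the 3 other subunits of the base, 0 passed the test by limma, against 59.8% of all genes tested. An unadjusted p under 0.05 was found for 1 of the 3. Psmd2, a large scaffold subunit, was measured at 121, 137 and 126 FPKM (WT libraries) against 133, 136 and 134 FPKM (R153A libraries). Among the alternatives, Psmd2 was called higher only without WT replicate 2 (limma adjusted p = 0.0317). Psmd1, the other large scaffold, stood at 79.5 ± 5.53 FPKM in WT and 79.0 ± 0.433 FPKM in R153A (SD, n = 3). Psmd4, a receptor for ubiquitin chains, was measured at 104, 109 and 113 FPKM (WT libraries) against 97.4, 95.3 and 105 FPKM (R153A libraries). The highest R153A library of Psmd4 lay above the lowest WT library (log2 fold change -0.13, SE 0.0531, limma adjusted p = 0.0580). Psmd4 was called lower in 6 of the 16 alternatives, with the lowest p after median-ratio scaling (limma adjusted p = 0.00195), and its p ranged from 0.00195 to 0.199 over all of these.

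Of the 8 lid subunits among the members, 1 rose and none fell (12.5% called, against 59.8% of all genes tested). Under median-ratio scaling, however, 5 were called lower. Psmd6, a lid scaffold subunit, was measured at 74.3, 71.0 and 70.9 FPKM (WT libraries) against 84.7, 81.2 and 88.9 FPKM (R153A libraries). Its R153A libraries were all higher than its WT libraries. Psmd6 rose by 17.8%, the largest rise among the structural subunits (log2 fold change 0.23, SE 0.0493, limma adjusted p = 0.00183). Psmd14, the deubiquitinating enzyme of the lid, was measured at 75.8, 78.8 and 75.6 FPKM (WT libraries) against 69.7, 70.6 and 72.7 FPKM (R153A libraries). Its groups did not overlap, with R153A lower, but it missed the threshold (log2 fold change -0.11, SE 0.0448, limma adjusted p = 0.0529, called lower in 4 of 16 alternatives). Psmd11, a lid subunit known for its high level in human pluripotent cells, was measured at 63.9, 65.5 and 62.1 FPKM (WT libraries) against 59.5, 58.4 and 63.9 FPKM (R153A libraries). Its groups overlapped, and its log2 fold change of -0.07 had a 95% interval from -0.19 to 0.04 (limma adjusted p = 0.221). Psmd3, Psmd7, Psmd8, Psmd12 and Psmd13, with log2 fold changes from -0.11 to 0.01, did not pass.

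All 3 chaperones of base assembly among the members were called, in different directions, against 59.8% called of all genes tested. Psmd5 was measured at 37.7, 43.1 and 42.1 FPKM (WT libraries) against 29.1, 28.1 and 31.3 FPKM (R153A libraries). Psmd10, which encodes gankyrin, was measured at 20.8, 22.4 and 21.8 FPKM (WT libraries) against 16.5, 18.8 and 18.2 FPKM (R153A libraries). Both were lower in every R153A library than in any WT library. Psmd5 fell by 28.0% (log2 fold change -0.46, SE 0.0629, limma adjusted p = 8.13e-05) and Psmd10 by 17.5% (-0.27, SE 0.0609, limma adjusted p = 0.00303). In contrast Psmd9 was measured at 7.22, 7.37 and 7.53 FPKM (WT libraries) against 10.7, 9.30 and 10.5 FPKM (R153A libraries). All its R153A values were higher, a rise of 38.2% (log2 fold change 0.42, SE 0.0680, limma adjusted p = 3.05e-04). These 3 genes and Psma8 were also the 4 members of the lowest level, all under 50 FPKM in every library. The summed level of the 3 chaperones was 65.7, 72.9 and 71.4 FPKM in WT and 56.4, 56.3 and 60.01 FPKM in R153A, and Psmd5 held more than any other of them.

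The level of core genes relative to regulatory genes was 1.73 in WT and 1.74 in R153A, closer than the spread between WT libraries. Mean FPKM per gene, with Psma8 and the chaperones left out, ranged from 144 to 152.97 in WT and from 149 to 154 in R153A for the 11 core genes. For the 17 regulatory genes it ranged from 84.4 to 89.5 in WT and from 85.3 to 88.2 in R153A. The WT and R153A ranges overlapped for both particles. The core genes stood above the regulatory genes by a ratio of 1.73 ± 0.0527 in WT and 1.74 ± 0.0112 in R153A (SD, n = 3). The median log2 fold change was 0.03 for the 12 core members and -0.03 for the 20 regulatory members, against 0.07 for all genes tested. Their difference of 0.05 compares with a spread of 0.0372 (SD) between libraries of a group, and no test was made of it. Without WT replicate 2 the difference was 0.03 and the regulatory median -0.0089, and without R153A replicate 3 the core median was 0.011. Under median-ratio scaling both medians were below 0, at -0.06 and -0.11. In the core particle 3 of 12 members were called (25%), 1 higher and 2 lower. In the regulatory particle 6 of 20 were called (30%), 4 higher and 2 lower. Among all genes tested 59.8% were called. Without WT replicate 1, 4 regulatory members were lower, and without WT replicate 3, 2 core members were higher.

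**Figure D4:**
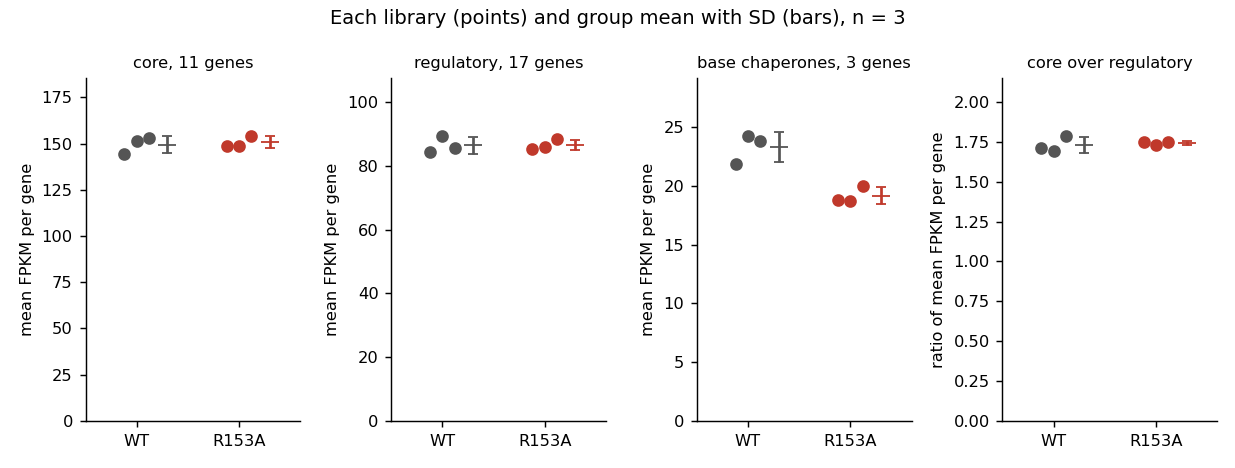
Mean FPKM per gene of the 11 core genes, the 17 regulatory genes and the 3 base chaperones in each library (points), with the group mean and SD (bars, n = 3), and the ratio of core to regulatory genes. WT and R153A overlap for both particles and for their ratio (1.73 and 1.74), and lie apart for the chaperones.

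Levels differed much more among subunits than between groups. Structural subunits ran from 59.1 FPKM for Psmc2 to 224 FPKM for Psmb3 in WT, a 3.79-fold range, and from 59.4 to 221 FPKM in R153A, a 3.72-fold range. Of the 11 members of the highest WT level, 9 were core genes. The order of the 32 members by level was nearly kept (Spearman's rho 0.97 between the group means, n = 32 genes, as a description). At the top, Psmb3, Psmb4 and Psma7 led in WT and Psmb4, Psmb3 and Psma7 in R153A. The members together held 0.862% ± 0.0211 of all FPKM in WT and 0.847% ± 0.00621 in R153A (SD, n = 3).

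The sequence just before the start of transcription was read for the called members, to show which known promoter motifs stand there. RefSeq promoters (GRCm38.p6, not the build of the deposited data) were found for 26 of the 32 members. For Psma8, Psmb1, Psmb2, Psmc3, Psmd3 and Psmd7 no entry was used. In the 250 bases before the start, 5 motifs were searched on both strands. The core of the antioxidant response element, TGACNNNGC, stood in 3 of the 26 genes (11.5%; 11.5% of all genes in the promoter table), Psmc6, Psmd9 and Psmd12. The ETS motif CCGGAAG stood in 9 (34.6%; 7.83% of all genes), the CCAAT box, bound by NF-Y, in 11 (42.3%; 37.5%), the E2F motif TTCCCGC in 3 (11.5%; 4.38%) and the YY1 motif AGATGGCG in 2 (7.69%; 1.21%). None of the 5 contains another, though matches may overlap. A match is only a match of letters. Of the 7 called members with an entry, Psmc6 and Psmd6 held an ETS motif, Psma3, Psma7 and Psmd10 a CCAAT box, and Psmd5 none of the 5.

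The 250 bases before the start are printed for the 3 base chaperones, the ATPase Psmc6, the lid subunit Psmd6 and the alpha subunit Psma7, the members with an entry that were called in all 16 alternatives. They run 5′ to 3′ on the strand of the gene, and capitals mark the motif matches. Psmd5 lies at chr2:34870963-34871212 on the minus strand, Psmd9 at chr5:123227940-123228189 on the plus strand, Psmd10 at chrX:140956712-140956961 on the minus strand, Psmc6 at chr14:45329574-45329823 on the plus strand, Psmd6 at chr14:14120946-14121195 on the minus strand and Psma7 at chr2:180042465-180042714 on the minus strand.
Psmd5: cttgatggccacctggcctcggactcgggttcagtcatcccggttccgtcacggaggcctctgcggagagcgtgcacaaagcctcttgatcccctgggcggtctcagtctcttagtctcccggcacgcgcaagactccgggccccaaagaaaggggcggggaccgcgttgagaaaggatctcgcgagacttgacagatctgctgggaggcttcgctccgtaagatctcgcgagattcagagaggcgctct
Psmd9: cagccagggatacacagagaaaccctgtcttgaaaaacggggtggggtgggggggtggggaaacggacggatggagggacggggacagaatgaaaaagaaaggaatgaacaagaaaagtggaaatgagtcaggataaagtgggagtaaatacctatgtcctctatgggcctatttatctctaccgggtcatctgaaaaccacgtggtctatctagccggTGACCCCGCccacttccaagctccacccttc
Psmd10: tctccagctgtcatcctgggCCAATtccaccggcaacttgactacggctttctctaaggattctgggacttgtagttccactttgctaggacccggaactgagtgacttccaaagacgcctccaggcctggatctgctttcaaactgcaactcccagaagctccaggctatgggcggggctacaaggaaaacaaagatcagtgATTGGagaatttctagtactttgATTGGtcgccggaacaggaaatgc
Psmc6: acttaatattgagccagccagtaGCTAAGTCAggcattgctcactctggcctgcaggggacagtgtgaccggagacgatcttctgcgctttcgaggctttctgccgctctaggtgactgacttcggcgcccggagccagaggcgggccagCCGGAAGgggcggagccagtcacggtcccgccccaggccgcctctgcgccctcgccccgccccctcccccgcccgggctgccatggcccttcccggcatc
Psmd6: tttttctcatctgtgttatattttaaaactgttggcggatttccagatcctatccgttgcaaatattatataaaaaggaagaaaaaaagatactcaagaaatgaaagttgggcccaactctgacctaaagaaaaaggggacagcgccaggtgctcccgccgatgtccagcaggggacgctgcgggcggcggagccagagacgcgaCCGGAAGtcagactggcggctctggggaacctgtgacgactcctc
Psma7: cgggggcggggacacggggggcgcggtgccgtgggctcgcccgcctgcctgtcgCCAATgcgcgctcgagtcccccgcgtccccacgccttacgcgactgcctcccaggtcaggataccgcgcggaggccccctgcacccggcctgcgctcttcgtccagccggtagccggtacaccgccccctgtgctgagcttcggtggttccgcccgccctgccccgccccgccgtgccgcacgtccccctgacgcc

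Psmd9, which rose, has its capitals 31 bases before the start, a match to the antioxidant response element core. Psmc6, which also rose, has such a match 227 bases before the start on the opposite strand and an ETS motif 100 bases before it. Psmd6, which rose as well, has an ETS motif at 45 bases. Psmd10, which fell, has 3 CCAAT boxes, at 230, 47 and 24 bases, and Psma7, which fell, has 1 at 196 bases. The called members thus shared no single motif of the 5.

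The 3 constitutive catalytic subunits, which lie outside the naming rule, stood with the structural subunits. Psmb5, Psmb6 and Psmb7 carry the cutting sites of the inner ring. Psmb7 was at 187 ± 7.80 FPKM in WT and 195 ± 7.14 in R153A, Psmb6 at 180.1 ± 6.94 and 177 ± 7.45, and Psmb5 at 154 ± 9.49 and 144 ± 4.23 (SD, n = 3). No call was made for the 3 genes (limma adjusted p from 0.148 to 0.702), and Psmb5 was called lower under median-ratio and TPM scaling. In contrast their interferon-inducible counterparts all rose, Psmb8 from 1.46 ± 0.380 to 14.4 ± 0.625 FPKM, Psmb9 from 1.55 ± 0.200 to 9.31 ± 0.459 FPKM and Psmb10 from 8.86 ± 0.405 to 27.9 ± 0.647 FPKM. As a share of the pair in R153A, Psmb8 made up 9.06% of Psmb8 and Psmb5, Psmb9 5.00% of Psmb9 and Psmb6, and Psmb10 12.5% of Psmb10 and Psmb7, up from 0.939%, 0.852% and 4.53% in WT.

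**Figure D5:**
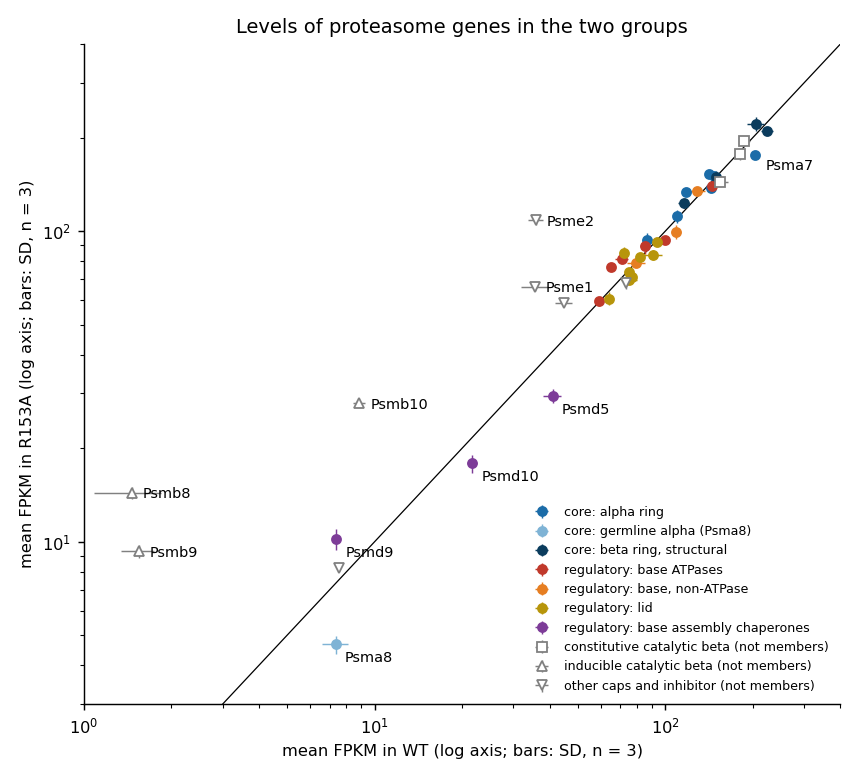
Mean FPKM in R153A against mean FPKM in WT on log axes, with SD (bars, n = 3), for the 32 members and, as open symbols, for proteasome genes outside the naming rule; the line marks equal levels. Most structural members lie close to the line between 59 and 224 FPKM. The inducible subunits Psmb8, Psmb9 and Psmb10, the cap genes Psme1, Psme2 and Psme4, and the base chaperone Psmd9 lie above it. Psma8, Psmd5 and Psmd10 lie below it.

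Of 5 genes for other caps and their inhibitor, 3 rose and 2 did not pass, near the 59.8% called among all genes tested. Of the latter 2, Psme3 was called lower under median-ratio, TPM and quantile scaling. Psme2 and Psme1, which form the interferon-inducible activator ring, both rose, Psme2 from 35.8 ± 2.14 to 108 ± 3.85 FPKM, Psme1 from 35.7 ± 3.71 to 66.0 ± 2.02 FPKM. Psme4, a single-chain activator, rose from 44.7 ± 2.90 to 58.8 ± 0.393 FPKM. Of the 5 chaperones of core particle assembly, 3 rose and 2 did not pass, again near 59.8%. Of the latter 2, Psmg1 was called lower under median-ratio scaling. Pomp, the maturation factor that assembles with the beta subunits, rose from 107 ± 8.26 to 134 ± 3.63 FPKM (log2 fold change 0.32, limma adjusted p = 5.88e-04). Psmg2 rose from 25.9 ± 1.70 to 31.2 ± 1.03 FPKM and Psmg3 from 17.2 ± 1.52 to 19.9 ± 0.644 FPKM, the latter a call that ended in 7 of 16 alternatives. Of 9 other subunits and bound enzymes tested, 5 rose, 1 fell and 3 did not pass (66.7% called, against 59.8%). Shfm1, a small lid subunit, rose from 108 ± 14.5 to 128 ± 5.38 FPKM, AI314180 from 11.1 ± 1.25 to 13.4 ± 0.216 FPKM and the ubiquitin ligase gene Ube3a from 12.2 ± 0.949 to 14.4 ± 0.0605 FPKM. The call of Shfm1 ended in 3 of 16 alternatives, that of Ube3a in 2, that of Uchl5 in 9 and that of Txnl1 in 10. Uchl5 and Txnl1, named after their values were seen, were the other rises of that list (limma adjusted p = 0.0411 and 0.0472).

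Genes that feed or regulate the proteasome moved in both directions, as did all genes tested. Of 12 genes for shuttle receptors and the p97 unfoldase, 58.3% were called, against 59.8% of all genes tested. Of the 12, 4 rose, 3 fell and 5 did not pass. Among these calls, the fall of Rad23b ended in 8 of 16 alternatives, the rise of Nploc4 in 5 and that of Vcp in 1. Ubqln4 fell from 66.5 ± 3.47 to 46.2 ± 0.789 FPKM, and Ubqln2, also a ubiquilin that brings substrates to the proteasome, rose from 33.8 ± 1.17 to 41.7 ± 0.412 FPKM. Faf2, a p97 cofactor, rose from 11.8 ± 0.769 to 14.4 ± 0.715 FPKM. Among genes for ubiquitin and its activating enzymes, Ubb, which encodes ubiquitin, fell from 1023 ± 24.6 to 912 ± 12.9 FPKM. The Ubb call ended without R153A replicate 1 (limma adjusted p = 0.0541) and without R153A replicate 3 (0.0628). Of 16 genes tested for regulators of proteasome genes, 7 rose, 5 fell and 4 did not pass (75% called, against 59.8%). The call of Zfand5 ended in 4 of 16 alternatives, and those of Nfe2l2, Ngly1 and Nfyc in 1 each. Nfe2l3, counted among the falls, passed the filter on low values through its WT libraries. The largest changes were the rises of the small MAF factors Mafk, from 4.91 ± 0.371 to 8.86 ± 0.384 FPKM, and Maff, from 8.56 ± 0.513 to 14.6 ± 1.30 FPKM, and of the forkhead factor Foxo4, from 20.4 ± 0.440 to 30.0 ± 0.661 FPKM. Nfe2l1, the main known activator of subunit genes, fell from 56.2 ± 1.16 to 41.8 ± 0.401 FPKM (log2 fold change -0.42, limma adjusted p = 1.16e-05).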

How the data were processed

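All values come from a single deposited FPKM table, by gene symbol and library. The submitters' processing notes name mm9 as build and, as tools, edgeR 3.26.8, HTSeq 0.11.2, Bowtie2 2.3.4.3 and SAMtools 1.9, but not what each did. Which of them gave the FPKM, with what annotation and strand setting, was not given in the sources used here. Read counts were not recovered, so no count test was run.

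Columns were matched to samples by library name. Values were used as log2(FPKM + 1), for genes of at least 1 FPKM in at least 3 of 6 libraries (11817 genes), in limma 3.58.1 (R 4.3.3) with a mean-variance trend, with 2-sided p-values adjusted by Benjamini-Hochberg across those genes. The pseudocount understates changes of low genes. The fit was tested on simulated data with independent noise, few changed genes and no difference in scaling. That test did not cover the share of calls or the scaling of these data. Figures used matplotlib 3.10.9 and Python 3.11.15.

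The members and lists were chosen with earlier results of these data known. The rule for values in every library took, in the core particle, the ATPases and the non-ATPases, up to 4 called members per direction and the member of highest mean, plus Psmd14, Psmd11 and Psmd4. In 10 other lists (84 entries, 82 in the table) it took up to 3 called genes, or the 2 of highest mean where none was called. A result of these lists is not reported here. Psmb5, Nfe2l1, Psma2, Psmb1, Psmb2, Psmb4, Psmd1, Thy1, Lin28a and Cdh1 were named after their values were seen. So were genes named only for the stability of their calls. Alternatives were pseudocounts of 0.1 and 0.5, no filter, a filter of 5 FPKM, quantile normalization, TPM or median-ratio scaling, limma without a trend, robust moderation, a replicate block and leaving out each library.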

Additional observations from a re-analysis of the deposited data

How the results depend on the processing

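Of the 9 members called, 8 held their direction and their side of the threshold in all 16 alternatives, and the call of Psma3 ended under median-ratio scaling only. No called member changed sign. Under median-ratio scaling 13 members were lower, 9 of them regulatory and 4 core, 0 core members were higher by limma, and the medians were -0.0557 for the core and -0.11 for the regulatory particle. After rescaling to TPM 9 members were lower, 6 of them regulatory, and under quantile normalization 7 were lower, 5 of them regulatory, with 2 core members higher. No filter on low values also gave 2 core members higher. A filter of 5 FPKM left 8071 genes tested, so that 2901 were called higher. Psma8 passed that filter only through its WT libraries. Leaving out 1 library gave 1 to 2 core members higher (2 without WT replicate 3) and 2 to 4 regulatory members lower (4 without WT replicate 1). Replicate numbers did not pair the libraries: deviations of same-numbered libraries correlated at -0.0487, -0.00946 and 0.0600, and not every library correlated best with its own number. With a replicate block, 5 members were higher and 5 lower, and of all genes tested 4316 were higher and 2560 lower. Depth is unknown, so no counting error can be given.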
